A study of Mus musculus with 6 samples.

Results

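Imprinted genes, which mammals express mainly from 1 parental copy, were examined in lung endothelial cells together with the regions that control them. The set holds 41 mouse genes chosen by name, in 19 clusters, of 46650 genes measured. Each gene was taken with its RefSeq span and 10 kb on either side. These neighbourhoods held 2702 of the 1683697 windows of 1 kb with a methylation value in all 6 samples. A window was called near 50% when it lay between 35% and 65% in each of the 6 samples, and 2 or more adjacent windows of this kind were called a run.

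The cells were endothelial cells, which line blood vessels, sorted by flow cytometry from lungs of WT mice. Methylation was read by tagmentation-based whole-genome bisulfite sequencing. The group titled mAdu (8 months, 3 samples) was compared with the group titled aged (18 months, 3 samples), to see how methylation differs with age. No treatment or engineered allele is named for either group, and strain and sex are not stated. The labels do not state whether each sample is its own animal. The p-values therefore rest on a spread between samples that may be technical only.

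In imprinting, a control region is methylated in 1 parent's germ line and left unmethylated in the other's, and the mark is then kept through cell divisions. A bulk sample holds both copies, so such a region reads about halfway between full and no methylation. The marks set the expression of fetal growth factors, growth inhibitors and long noncoding RNAs, and ZFP57, a zinc finger protein, is known to protect them by binding a short methylated motif.

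The starts of 5 members that read near 50% in every sample are printed first, because they show how different in base composition such starts are. Each is the 300 bases from 250 before to 50 after the RefSeq start site (build GRCm38.p6, which shares coordinates with mm10), written 5′ to 3′ on the gene's strand. Capitals mark TGCCGC or its reverse complement GCGGCA, the letters of the ZFP57 motif. Mest lies at chr6:30737800-30738099 (plus strand), Nnat at chr2:157559828-157560127 (plus) and Plagl1 at chr10:13090582-13090881 (plus). Igf2r lies at chr17:12769657-12769956 (minus) and Airn at chr17:12741061-12741360 (plus), inside the Igf2r gene.
Mest: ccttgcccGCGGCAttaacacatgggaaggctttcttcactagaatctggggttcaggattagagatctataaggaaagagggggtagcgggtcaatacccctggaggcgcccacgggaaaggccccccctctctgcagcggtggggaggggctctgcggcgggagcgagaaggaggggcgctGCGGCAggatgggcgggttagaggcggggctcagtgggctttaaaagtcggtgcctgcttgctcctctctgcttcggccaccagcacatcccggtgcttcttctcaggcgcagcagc
Nnat: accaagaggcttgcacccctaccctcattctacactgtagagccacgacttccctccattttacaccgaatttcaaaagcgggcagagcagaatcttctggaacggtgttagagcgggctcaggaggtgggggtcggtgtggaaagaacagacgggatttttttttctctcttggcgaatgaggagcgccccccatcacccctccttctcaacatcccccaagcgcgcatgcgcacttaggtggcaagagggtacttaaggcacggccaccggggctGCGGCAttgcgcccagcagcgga
Plagl1: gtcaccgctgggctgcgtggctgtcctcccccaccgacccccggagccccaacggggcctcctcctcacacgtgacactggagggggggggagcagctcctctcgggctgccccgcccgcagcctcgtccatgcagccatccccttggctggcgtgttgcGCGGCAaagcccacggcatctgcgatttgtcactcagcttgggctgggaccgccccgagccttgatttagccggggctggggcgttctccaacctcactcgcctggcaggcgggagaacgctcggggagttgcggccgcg
Igf2r: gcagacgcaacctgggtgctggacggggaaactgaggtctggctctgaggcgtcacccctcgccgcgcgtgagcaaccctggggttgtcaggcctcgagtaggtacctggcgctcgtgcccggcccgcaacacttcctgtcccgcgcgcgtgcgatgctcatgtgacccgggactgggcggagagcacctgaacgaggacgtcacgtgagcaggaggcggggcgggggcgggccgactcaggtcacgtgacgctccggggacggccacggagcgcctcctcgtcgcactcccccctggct
Airn: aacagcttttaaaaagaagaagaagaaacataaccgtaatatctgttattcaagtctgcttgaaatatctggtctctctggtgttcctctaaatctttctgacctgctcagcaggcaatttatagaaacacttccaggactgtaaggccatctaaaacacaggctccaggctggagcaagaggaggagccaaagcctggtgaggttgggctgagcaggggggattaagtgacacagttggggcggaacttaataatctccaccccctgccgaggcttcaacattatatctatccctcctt
The Mest sequence holds 17 CpG sites and 2 motif matches, Nnat 17 sites and 1 match, and Plagl1 26 sites and 1 match. The Igf2r sequence has 34 CpG sites and the Airn sequence 3, and neither holds the letters searched. Over all members in the promoter table, 11 of 45 promoters held the motif (24.4%), against 3643 of 31396 promoters of all genes (11.6%). The letters hold a CpG site, and the 2 shares were not matched for CpG content. The 11 count 2 overlapping Mest promoters and include low-methylated starts, as of Copg2, Zim1 and Grb10. Among all genes, 20.6% of starts under 20% in the mean of the 6 samples held the letters, against 5.37% of starts near 50%. A match describes these letters only, and its binding was not measured.

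The promoter table named 31 members, and 30 of them had a value in a window holding a start, which gave 41 start windows. Of these, 11 were near 50% (26.8%), against 8.44% of the 26667 start windows of all genes. The share depends on the band: between 40% and 60% in each sample lay 2 of 41 (4.88%), against 3.92% of all starts. Another 16 member starts lay under 20% in the mean of the 6 samples (39.0%), against 48.7% of all starts, and 3 lay above 80%. The remaining 11 were in none of these classes. H19, Ins2, Kcnq1, Cdkn1c, Rtl1, Sgce, Peg10, Peg13, Trappc9 and Impact had no entry.

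The gap between the shares was wider among CpG-rich starts. Among starts with at least 10 CpG sites in their 300 bases, 7 of 28 member starts were near 50% (25%), against 215 of 12588 starts of all genes (1.71%). Between 40% and 60% lay 1 of the 28 (3.57%), against 0.786%. The median start near 50% held 13 CpG sites among the members and 4 among all genes. The 7 were those of Gnas, Igf2r, Meg3, Mest, Nnat, Plagl1 and Zrsr1. These shares describe the members and carry no test.

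**Figure D1:**
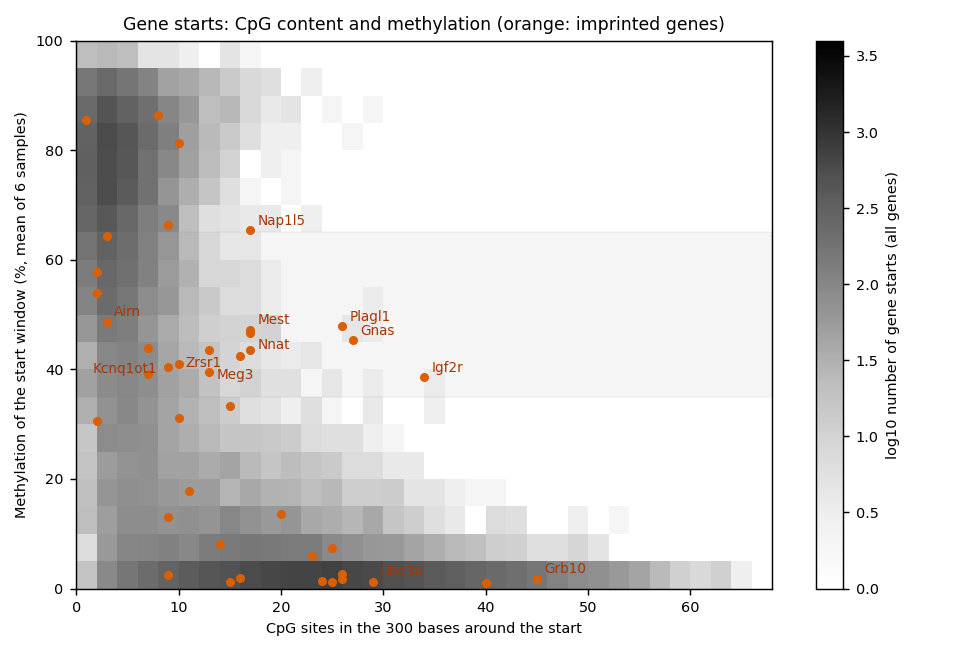
CpG sites in the 300 bases around each gene start (x axis) against the methylation of the start window in percent, mean of 6 samples (y axis), with all genes as a grey density on a log10 scale and member starts in orange; the band from 35% to 65% is shaded. CpG-rich starts of all genes lie mostly at the bottom, while Plagl1 with 26 CpG sites and Igf2r with 34 lie in the band and Grb10 with 45 lies at the bottom.

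Mest, a gene expressed from the father's copy that encodes a hydrolase-like protein, had the longest run among the members. The run at chr6:30735001-30740000 covered 5 windows around the start printed above. Its means were 45.0%, 45.3% and 50.7% in the mAdu samples and 45.9%, 50.9% and 47.1% in the aged samples. The groups overlapped, and all 6 samples lay within a few points of 50%. Copg2, a coatomer gene that overlaps the end of Mest, had an unmethylated start, with a highest sample at 2.77%.

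Nnat encodes neuronatin, a small membrane protein, and its start is covered by the run chr2:157560001-157562000. The run read 50.7%, 46.2% and 45.8% in mAdu and 45.8%, 50.7% and 51.5% in aged samples, so the groups overlapped. The window just before it averaged 77.6% in mAdu and the window just after it 84.6%, which put sharp edges on a region of 2 windows. Plagl1, a zinc finger growth regulator, showed the same form at chr10:13090001-13092000. Its run read 45.2%, 46.3% and 47.7% in mAdu and 42.9%, 54.9% and 49.9% in aged samples, with overlap and a wider spread among the aged.

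Peg3, a zinc finger gene expressed from the father's copy, faces Usp29, a deubiquitinase gene, across a shared start region. The run at chr7:6727001-6730000 lies just inside Peg3 and read 50.2%, 49.9% and 46.0% in mAdu and 46.2%, 51.4% and 46.9% in aged samples. The groups overlapped. The window holding both starts missed the band through 1 sample of each group, with values of 29.1%, 51.4% and 50.1% in mAdu and 47.9%, 34.99% and 47.9% in aged samples. The start of Zim1, the neighbouring zinc finger gene, was low in every sample, at a mean of 13.5%.

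**Figure D2:**
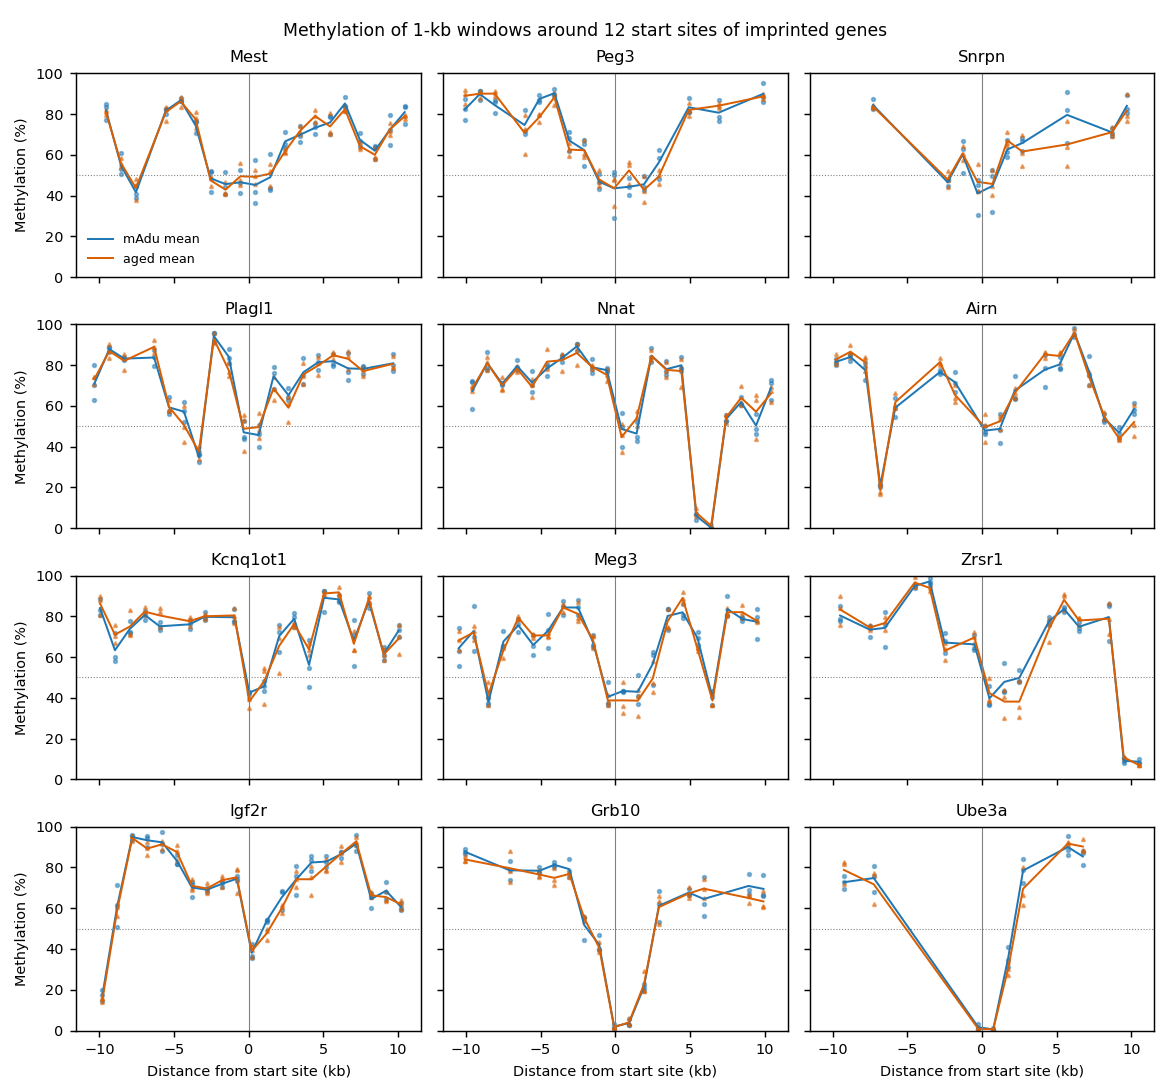
Methylation in percent (y axis) of 1-kb windows by distance in kb from the start site (x axis, upstream to the left) for 12 member starts; points are samples (blue circles mAdu, orange triangles aged) and lines the group means. Mest, Peg3, Plagl1 and Airn dip to about 50% at the start, and Grb10 and Ube3a dip to near 0. The lines of the 2 groups run close in most windows and part in some, in both directions. Examples are chr7:59999001-60000000 near Snrpn (79.6% in mAdu, 65.1% in aged) and chr7:6729001-6730000 in Peg3 (44.3% in mAdu, 52.4% in aged).

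The Igf2r cluster held 2 opposite starts that were both near 50%. Igf2r encodes the receptor that clears the growth factor IGF2, and Airn is the noncoding RNA, started inside Igf2r, that silences it in cis. The Airn start run at chr17:12741001-12743000 read 51.5%, 49.2% and 44.2% in mAdu and 54.7%, 48.7% and 49.6% in aged samples. The Igf2r start run at chr17:12768001-12770000 read 45.4%, 44.2% and 48.2% in mAdu and 42.0%, 45.7% and 42.3% in aged samples. Both pairs of groups overlapped, although the 2 starts differ in CpG content as printed above. The longest run of the cluster, chr17:12749001-12752000, lies between them and averaged 53.1% ± 1.40 (SD, n = 3) in mAdu and 50.3% ± 2.56 (n = 3) in aged samples.

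Gnas, which encodes the stimulatory G protein alpha subunit and has several alternative starts, had 5 runs, the most together with Peg3 and Snrpn-Ube3a. They lie at chr2:174285001-174288000, chr2:174294001-174297000, chr2:174298001-174301000, chr2:174326001-174328000 and chr2:174334001-174337000. Its neighbouring starts stood far apart in level. The start at position 174327749 read 45.5%, 40.8% and 47.9% in mAdu and 50.4%, 45.5% and 42.2% in aged samples. The start at position 174330006 read 0.323%, 0.690% and 0.556% in mAdu and 0.169%, 2.82% and 1.04% in aged samples. Every sample therefore held a half-methylated and an unmethylated Gnas start within a few kb, and neither pair of groups was apart.

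Grb10, an adaptor that restrains growth signalling, had starts at different levels. Its start with 45 CpG sites read 0.921%, 1.74% and 3.20% in mAdu and 1.47%, 1.86% and 1.73% in aged samples. Its start at position 12027971 lay higher, at 76.0%, 66.4% and 66.0% in mAdu and 60.6%, 68.4% and 60.9% in aged samples, and outside the band. Close to that start lay the run chr11:12025001-12027000, at 48.1%, 50.4% and 50.9% in mAdu and 49.2%, 56.2% and 40.2% in aged samples. The aged samples spread over a wider range than the mAdu samples, and the groups overlapped.

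Between H19, a noncoding RNA, and Igf2, the fetal growth factor that shares its enhancers, the run chr7:142580001-142583000 lies on the H19 side, where the control region bound by CTCF is known to be. It read 47.2%, 54.6% and 47.1% in mAdu and 51.4%, 47.8% and 47.9% in aged samples, and the groups overlapped. Igf2 itself had 2 starts near 50% and 2 under 20%. The one at position 142666816 read 57.1%, 57.4% and 54.9% in mAdu and 57.5%, 60.9% and 58.9% in aged samples, without overlap and without passing (limma adjusted p = 0.978). Ins2, an insulin gene in the same cluster, had 2 windows near 50% among 12 and no run.

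Kcnq1ot1 is a noncoding RNA whose start, inside the potassium channel gene Kcnq1, is the known control region of its cluster. Its start window fell out of the band through 1 aged sample, with values of 43.1%, 42.8% and 41.8% in mAdu and 39.4%, 34.9% and 40.4% in aged samples. The aged samples were all below the mAdu samples there, by -4.32 points in the mean (95% interval -10.2 to 1.52; limma adjusted p = 0.978). The adjacent window inside the gene was near 50% and overlapped between groups, at 45.6%, 43.4% and 48.0% against 37.1%, 54.5% and 53.1%.

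Phlda2, Ascl2 and Slc22a18, in the same cluster, had no start near 50%. Phlda2, a placental growth restrainer, had a start at 2.61% in the mean, and Ascl2, a trophoblast transcription factor, at 5.97%. Slc22a18, a transporter gene, had its start at 30.6%. Cdkn1c, the cell cycle inhibitor, had 1 window near 50% among 20 and no run. The cluster's main run, chr7:143105001-143107000 at the edge of Kcnq1, read 55.1%, 50.5% and 50.7% in mAdu and 53.7%, 50.8% and 51.4% in aged samples, with overlap.

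In the Dlk1-Dio3 cluster, the start window of Meg3, a noncoding RNA expressed from the mother's copy, read 47.6%, 37.3% and 36.6% in mAdu and 41.4%, 38.2% and 36.5% in aged samples, and the groups overlapped. Its other start, at position 109545398, lay high, at 80.5%, 86.1% and 79.2% in mAdu and 91.9%, 88.6% and 86.4% in aged samples. Every aged sample was higher there, by 7.04 points (95% interval 1.09 to 12.99), and the difference did not pass (limma adjusted p = 0.978). Dlk1, a Notch-like ligand, and Dio3, the enzyme that inactivates thyroid hormone, had low starts at 13.1% and 7.38%. Rtl1, a retrotransposon-derived gene, Rian and Mirg, hosts of small RNAs, had neighbourhood means of 72.6%, 73.9% and 73.3% in mAdu, against 73.5% over all windows. Within these, the run chr12:109612001-109614000 in Rian read 49.8%, 44.6% and 49.1% in mAdu and 45.4%, 48.6% and 46.3% in aged samples. The run chr12:109747001-109749000 in Mirg read 46.4%, 46.8% and 47.5% against 43.5%, 47.1% and 45.7%, and both pairs of groups overlapped.

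The control region between Dlk1 and Meg3 lies beyond the 10 kb and was looked at after values had been seen. The window chr12:109528001-109529000, less than 20 kb before Meg3, read 55.5%, 52.5% and 54.3% in mAdu and 50.9%, 45.4% and 44.5% in aged samples. The aged samples were all below the mAdu samples in this window. In chr12:109524001-109525000 they were all above, at 70.8%, 75.8% and 71.6% against 61.7%, 60.4% and 62.9%. None of these differences carries a test, because the windows were chosen after their values were seen. Windows at chr12:109518001-109519000, chr12:109519001-109520000 and chr12:109523001-109524000 were also near 50%.

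Snrpn, a splicing protein gene, has the known control region of its cluster at its start with 7 CpG sites, chr7:60005150-60005449. The window holding it missed the band through 1 mAdu sample, with values of 30.7%, 45.1% and 47.4% in mAdu and 55.7%, 42.4% and 42.1% in aged samples. The groups overlapped, and sample spread was wide. Values were sparse in this cluster: 39.3% of the 1-kb bins around Snrpn and 38.8% of those around Ube3a had one.

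The longest run of the Snrpn-Ube3a cluster lay near Magel2, a MAGE family gene, at chr7:62385001-62389000, with 44.5%, 51.0% and 47.3% in mAdu and 45.6%, 46.9% and 50.8% in aged samples. The start of Ndn, another MAGE gene, averaged 17.8%, that of Magel2 31.1% and that of Mkrn3, a ubiquitin ligase gene, 33.3%. Ube3a, the ubiquitin ligase gene silenced on the father's copy in neurons, had an unmethylated start in every sample, the highest at 3.12%, and no window near 50%.

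Peg10, a retrotransposon-derived gene, and Sgce, a sarcoglycan gene, start back to back. Inside Sgce, runs lay at chr6:4740001-4742000 and chr6:4745001-4747000, the second next to both starts. The second read 43.7%, 45.9% and 46.3% in mAdu and 44.3%, 52.6% and 48.0% in aged samples, with overlap.

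Peg13, a noncoding RNA inside Trappc9, a vesicle transport gene, had a run of 4 windows at chr15:72805001-72809000. It read 48.9%, 47.1% and 47.4% in mAdu and 52.2%, 50.9% and 52.3% in aged samples. Every aged sample was above every mAdu sample, by 3.97 points (95% interval -0.143 to 8.09), and the difference did not pass (limma adjusted p = 0.956). Impact, a regulator of translation, had a run of 3 windows at chr18:12972001-12975000, with 44.0%, 49.8% and 43.9% in mAdu and 48.4%, 48.0% and 49.0% in aged samples, and these overlapped.

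No run lay within 10 kb of Zrsr1, Nap1l5, Inpp5f or Rasgrf1. The start window of Zrsr1, a retrogene inside another gene, was near 50%, at 37.0%, 45.7% and 36.6% in mAdu and 38.3%, 49.5% and 39.1% in aged samples. The windows chr11:22973001-22974000 and chr11:22974001-22975000 inside Zrsr1 each missed the band through 1 aged sample. The first averaged 47.8% in mAdu and 38.2% in aged samples and the second 49.8% and 38.1%, and neither passed. The window in the band nearest 50%, chr11:22985001-22986000, lay beyond the gene and averaged 55.9% and 52.9%. Nap1l5, another retrogene, had 1 window near 50% next to its start, at 59.3%, 47.7% and 55.5% against 53.9%, 53.5% and 61.8%. In all of these windows of Zrsr1 and Nap1l5 the groups overlapped.

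Inpp5f, a phosphatase gene, Sfmbt2, a Polycomb gene, and Rasgrf1, a Ras exchange factor, had unmethylated starts, at 1.13%, at most 2.48% and at 1.75% in the mean. The runs of Sfmbt2 lay deep inside the gene, and the main one, chr2:10437001-10439000, averaged 53.6% ± 2.88 in mAdu and 57.1% ± 1.96 in aged samples (n = 3 each), with overlap. The window nearest 50% around Inpp5f, chr7:128672001-128673000, also lay deep inside the gene. That of Rasgrf1, chr9:89901001-89902000, read 44.9%, 49.7% and 51.7% in mAdu and 54.3%, 56.3% and 53.1% in aged samples, which did not overlap (limma adjusted p = 0.978).

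**Figure D3:**
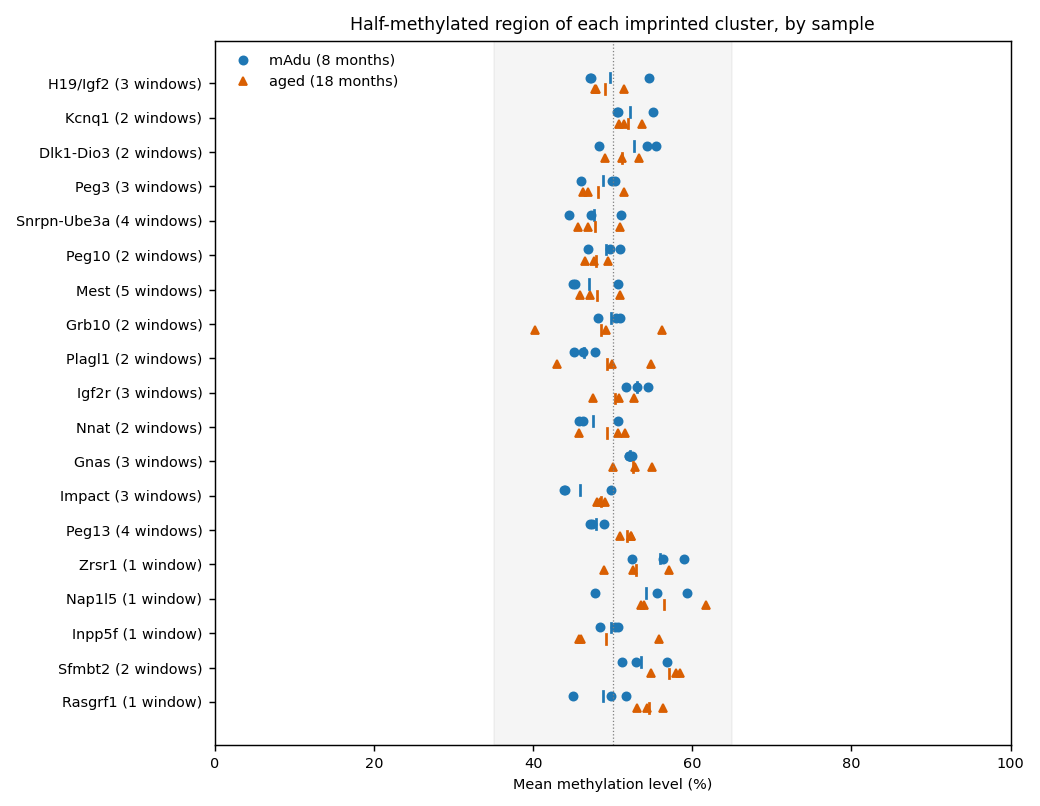
Mean methylation in percent (x axis) of the main half-methylated run or, where there was none, the window nearest 50%, for each of the 19 clusters (y axis); points are samples (blue circles mAdu, orange triangles aged), short bars the group means, and shading the band from 35% to 65%. The groups overlap in most clusters, and Peg13 and Rasgrf1 have every aged sample above every mAdu sample.

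As a whole, 274 of the 2702 member windows were near 50% (10.1%), against 8.15% of all windows. Windows in runs made up a larger share than in the genome, with 100 member windows (3.70%) against 1.72% of all windows. There were 42 runs of 13408 in the genome, where the longest covered 8 windows. Within the band the outermost member values were 35.2% and 64.98%. Of the windows that missed it on 1 side only, the nearest had a lowest sample at 34.9% or a highest sample that rounds to the upper limit itself, and 99 windows missed it through a single sample.

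The average level of these windows differed little between the ages. Their mean was 50.6%, 50.5% and 50.5% in mAdu and 50.3%, 50.6% and 50.5% in aged samples. The groups overlapped, and the difference of -0.0589 points was smaller than the SD of 0.158 among the aged samples (n = 3). Half-methylated windows of the whole genome averaged 52.2% in mAdu and 52.0% in aged samples. Because the band keeps only windows that stay inside it in every sample, large changes could not appear in this mean.

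No member run passed the test of age. Of 42 runs, 0 had a limma adjusted p under 0.05, as did 0.0% of the 13408 runs of the genome. One member run (2.38%) had an unadjusted p under 0.05, against 5.19% of all runs, and in 4 (9.52%) the groups did not overlap, against 9.9%. The members' shares were thus near or below the background. Runs were chosen for lying in the band in every sample of both ages, so large changes could not appear among them. With the band applied to the mean of the 6 samples instead, 0 of 92 member runs passed, and 71 of the 44081 runs this band gave in the genome. Means were higher in aged samples in 21 of 42 runs, and for 41 of them the 95% interval stayed inside 10 points on either side of 0.

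The run with the smallest p lay near Dio3, at chr12:110272001-110274000. It read 52.0%, 49.3% and 53.1% in mAdu and 56.3%, 60.9% and 57.4% in aged samples. Every aged sample was higher, by 6.77 points (95% interval 2.33 to 11.2), and the difference did not pass (limma adjusted p = 0.901). The other run of Dio3, chr12:110285001-110287000, overlapped between groups. Of the 4 runs without overlap, that at chr12:110272001-110274000 and that of Peg13 were higher in aged samples and 2 were lower. The latter were chr15:73031001-73033000 in Trappc9, by -3.82 points (limma adjusted p = 0.962), and chr7:62412001-62414000 near Mkrn3, by -2.56 points (0.966).

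Gene neighbourhoods, each averaged over the gene and its 10 kb sides, did not pass either. Of 41, 0 had a limma adjusted p under 0.05, against 0.00643% of the 46650 genes, and the smallest was 0.987. Unadjusted p-values under 0.05 were found for 4 (9.76%), against 4.72% of all genes. In 10 (24.4%) the groups did not overlap, against 9.86%. They were H19, Phlda2, Rian, Mirg, Snrpn, Mkrn3, Ube3a, Sgce, Inpp5f and Sfmbt2. Many of the 41 neighbourhoods share windows, but these 10 share none with one another. Among the 10 are Snrpn, Sfmbt2, Ube3a and Inpp5f, the only members that held windows with values at the ends of the scale, described below. Whether those values bear on the separation of the groups was not tested. Means were higher in aged samples in 24 of 41 (58.5%), against 46.1% of all genes, with a median difference of 0.122 points against -0.0659 points. All 41 intervals (95%) lay within 5 points of 0.

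The 4 with an unadjusted p under 0.05 differed in both directions. The H19 neighbourhood differed by -1.42 points, from 66.0% ± 0.180 to 64.6% ± 0.158, and the Mkrn3 neighbourhood by -2.24 points, from 55.8% ± 0.430 to 53.6% ± 0.704 (n = 3 each). Without the 10 kb sides the H19 difference was 0.0941 points and the Mkrn3 difference 2.31 points, both in the other direction. Inpp5f differed by -0.954 points.

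Snrpn differed by 2.47 points, from 61.6% ± 0.0959 in mAdu to 64.1% ± 1.098 in aged samples (n = 3 each). Its neighbourhood held 18 windows in which some sample came within 0.01 points of 0% or 100%, and without such windows the difference was 0.146 points.

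**Figure D4:**
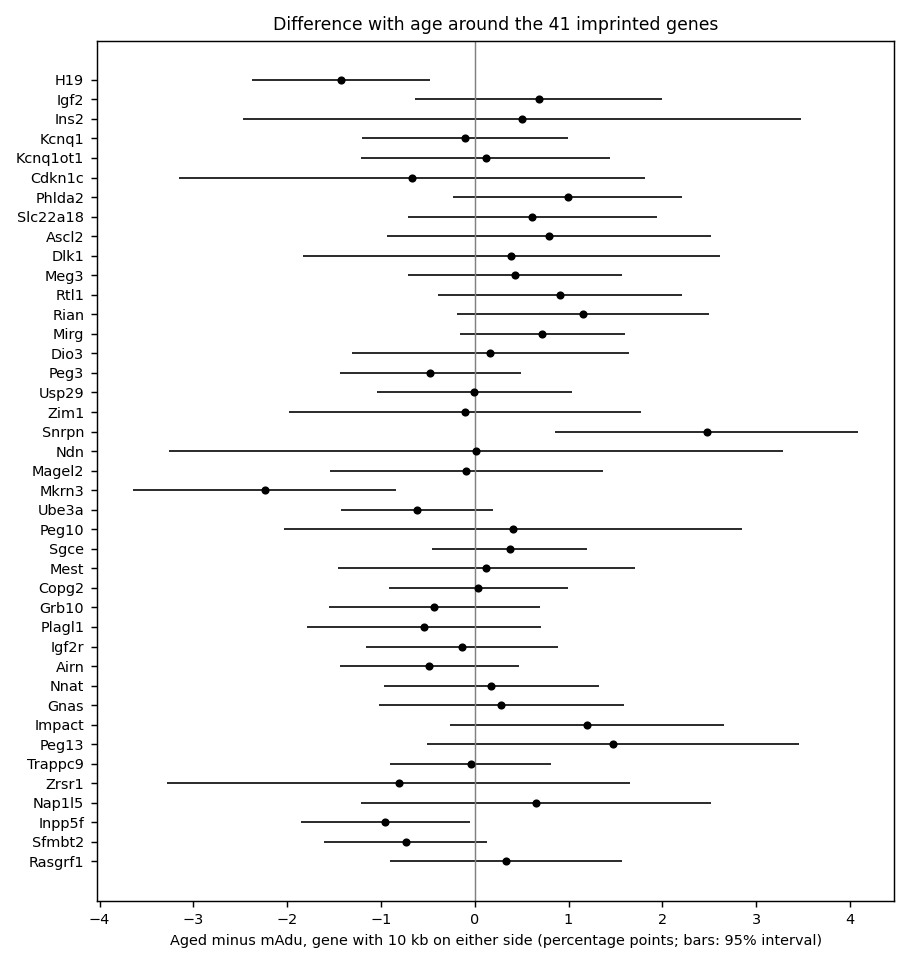
Difference in mean methylation, aged minus mAdu, in percentage points (x axis) for each of the 41 gene neighbourhoods (y axis); points are estimates and bars their 95% intervals from limma, not adjusted for the number of genes. All bars lie within 5 points of 0, and Snrpn is farthest to the right at 2.47 and Mkrn3 farthest to the left at -2.24.

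Single windows gave the same count. Of 2702, 0 had a limma adjusted p under 0.05, against 0.0211% of all windows, and 118 had an unadjusted p under 0.05 (4.37%, against 4.67% of all windows). In 253 member windows (9.36%) the groups did not overlap, against 10.04% of all windows. The single windows without overlap named above are to be read beside these shares. The smallest p belonged to chr11:11973001-11974000, deep inside Grb10. It read 43.1%, 38.5% and 38.6% in mAdu and 62.3%, 55.7% and 60.6% in aged samples. All aged samples were higher, by 19.4 points (95% interval 12.1 to 26.7), and the difference did not pass (limma adjusted p = 0.695).

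The other windows among the 5 with the smallest p were lower in aged samples, without overlap, and none passed (limma adjusted p = 0.978 each). In Copg2, chr6:30839001-30840000 averaged 94.9% and 87.2%. In Kcnq1, chr7:143367001-143368000 averaged 37.0% and 27.5%. In Ube3a, chr7:59304001-59305000 averaged 96.6% and 89.5%, and beyond the H19 run, chr7:142586001-142587000 averaged 91.0% and 81.7%.

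Values within 0.01 points of 0% or 100% occurred in 31 member windows (1.15%), against 1.72% of all windows. Snrpn held 18 of them, Sfmbt2 7, Ube3a 4 and Inpp5f 2, and none was near 50%. In such windows samples of the same group often stood at opposite ends. At chr7:60213001-60214000 in Snrpn the mAdu samples read 0.0437%, 0.00764% and 100% and the aged samples 100%, 99.5% and 100%.

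Upstream of Rasgrf1, where its control region is known to lie, 1 aged sample stood apart. The stretch chr9:89879001-89884000, between 25.8 and 30.8 kb before the start and so beyond the 10 kb, was chosen after its values were seen. It read 50.4%, 48.9% and 42.3% in mAdu, 46.6% and 45.7% in aged replicates 1 and 2, and 77.5% in aged replicate 3. All 5 windows of aged replicate 3 lay between 73.5% and 81.0%, above every window of the other samples (36.9% to 58.7%). The aged mean of 56.6% ± 18.1 (n = 3) against 47.2% ± 4.33 in mAdu therefore rests on that sample, and without it the aged samples lay within the mAdu range.

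**Figure D5:**
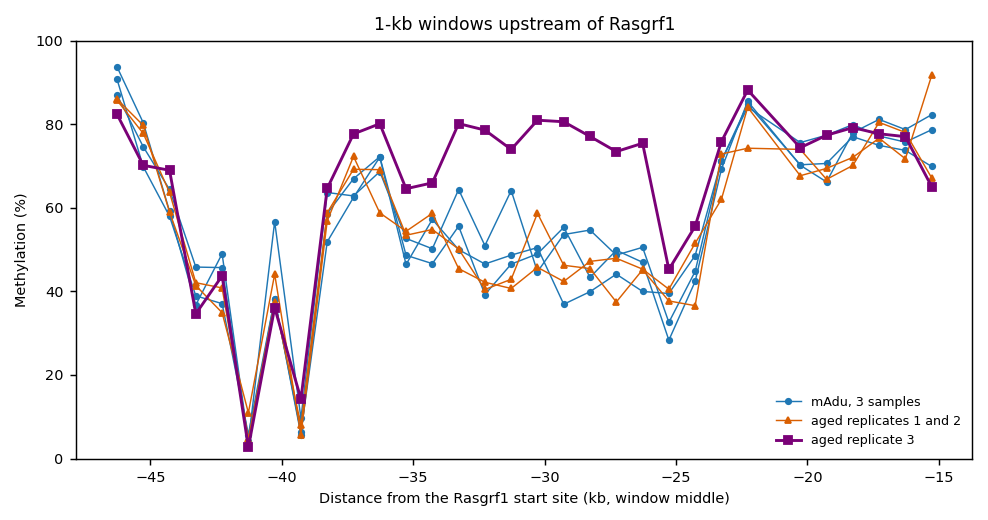
Methylation in percent (y axis) of 1-kb windows by distance in kb from the Rasgrf1 start site (x axis) for each sample; blue circles are mAdu, orange triangles aged replicates 1 and 2, and purple squares aged replicate 3. Aged replicate 3 runs at 73.5% to 81.0% where the other samples lie between 36.9% and 58.7%, is also above them in the windows just farther upstream, and comes close to them toward both ends of the plot.

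Other genes tied to imprinting did not pass either. Of 46 further imprinted genes, 44 were measured and 0 had a limma adjusted p under 0.05. An unadjusted p under 0.05 was found for 1 (2.27%, against 4.72% of all genes), and 17 were higher in aged samples (38.6%, against 46.1%). Of their 54 starts, 4 were near 50%, where 8.44% of all starts were near 50%. All 4 were CpG-rich, against 9.55% of the starts near 50% of all genes. Among the 4, that of Commd1 lies in the start window of Zrsr1, so a member window is counted again. Of 22 genes known for setting or keeping imprints, 21 were measured and 0 passed (smallest limma adjusted p = 0.987). Their unadjusted p-values under 0.05 numbered 4 (19.05%, against 4.72%), at Zfp445, Setdb1, Hells and Ctcf. The neighbourhood methylation of these 4 was higher in aged samples, by 0.870, 1.90, 1.39 and 1.26 points. In 14 of the 21 it was higher (66.7%, against 46.1%).

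Over all windows the methylation level ranged from 73.1% to 73.7% across samples. Endothelial marker starts with a value (6 of 10 genes) had a median of 1.75%, with a range of 1.04% to 13.2%. The median was 35.4% for epithelial markers (4 of 6 genes, range 1.59% to 59.1%). It was 78.8% for haematopoietic markers (3 of 5, 59.8% to 81.0%) and 2.89% for mesenchymal markers (3 of 6, 2.02% to 60.8%). The part of other cell types in the member values was not tested.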

How the data were processed

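The data are from tagmentation-based whole-genome bisulfite sequencing of 30 ng of DNA per sample, per the labels' protocols. Reads were handled with BWA 0.7.8 and build mm10, per the submitters' processing notes. How CpG sites were called, filtered and averaged is not given in the sources used here. As deposited, the table holds the authors' mean methylation per 1-kb window and sample as a fraction. It gives no coverage, so the depth is unknown and error was taken from the samples of a group.

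Of 1684140 windows, 443 lacked a value in some sample and were left out. Fractions were multiplied by 100. The design names the 2 ages without tying them to titles, and aged was taken as 18 months and mAdu as 8. Windows, runs near 50% (values averaged) and gene neighbourhoods of at least 3 windows were fitted over the whole genome with limma 3.58.1 (R 4.3.3). The fit used percent values, a single term for group and a variance trend. P-values were adjusted by Benjamini-Hochberg over all features of a kind, at 0.05. Intervals are 95%. The fits were tested on simulated data, and there the fit of single windows missed many of the changes put in. Gene positions and starts are RefSeq's (GRCm38.p6).

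All 41 members were to be accounted for. Per cluster the longest run (on a tie, the one nearest 50%) was named, or without a run the window nearest 50%, and the 5 windows with the smallest p where fewer passed. Windows upstream of Rasgrf1 and Meg3 fall outside this rule. The members, lists and this rule were chosen with earlier results of these data known. Replicate numbers do not pair samples: deviations of same-numbered samples correlated at -0.0116, -0.0167 and -0.000645 across windows. No 2 samples held the same values. Alternatives were another band, other gene sides, leaving out samples or extreme values, a replicate block, no variance trend and a logit scale.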

Additional observations from a re-analysis of the deposited data

How the results depend on the processing

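No alternative run made a member run or a gene neighbourhood pass. With a replicate block, whose numbers do not pair the samples, 0 windows, 0 runs and 0 neighbourhoods of the members passed, and 185 windows of all passed in place of 355. Passing member windows ranged from 0 to 1 of 2702 when a sample was left out, and passing windows of all 1683697 from 680 to 998. Without mAdu replicate 3, chr7:60213001-60214000 passed (limma adjusted p = 0.000771), and without aged replicate 3, chr7:60211001-60212000 passed (0.0441). Both lie in Snrpn and hold extreme values.

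The number of windows near 50% follows the band: 109 for 40% to 60% (4.03%, against 3.46% of all windows), 447 for 30% to 70% (16.5%, against 14.4%) and 499 for the band in the mean (18.5%, against 17.1%). With 50 kb sides it was 421. The age difference in their mean level was 0.0676 points with 40% to 60%, 0.194 points with the band in the mean, and -0.114 to 0.0316 points when a sample was left out. Member starts near 50% numbered 2 with 40% to 60%, and 17 with the band in the mean (41.5%, against 14.1% of all starts). CpG-rich ones numbered 1 with 40% to 60%. Both start counts under other bands were added after seeing the data. Without 10 kb sides the differences of H19 (limma adjusted p = 0.99953) and Mkrn3 (0.94552) changed direction.

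The depth is unknown. Precision is lowest in single windows, with a median SD within a group of 3.27 points over member windows.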

Other observations

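Stretches in which 1 sample stood at least 15 points from each of the other 5 in every window, always on the same side, were counted over the genome after the Rasgrf1 values had been seen. Of at least 5 windows there were 172, of which 15 held no value within 0.01 points of 0% or 100%. Several of the 15 lie close together, within chr4:42270001-42347000 and chr14:3525001-3533000. The stretch upstream of Rasgrf1 was the single one of those 15 within 50 kb of a member. Of the 1683697 windows, 4338 lie that near a member. Of at least 2 windows and without values within 0.01 points of 0% or 100% there were 1728, with 3 near members. Besides the Rasgrf1 stretch these were chr9:89876001-89878000, close beside it and also highest in aged replicate 3 (79.4%, the others 43.8% to 57.7%), and chr7:128605001-128607000 before Inpp5f, lowest in aged replicate 3 (39.7%, the others 83.7% to 99.5%).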
